A study of Danio rerio with 6 samples.

Results

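In pre-vitellogenic ovarian follicles of zebrafish, 70 genes had a mean level in ybx1 mutants at least 8-fold below that in wild type, from genes with no mutant count to genes with about 2 CPM left. Their summed level was 228, 228 and 236 CPM (counts per 1000000 counts of a library) in wild-type replicates 1 to 3 and 15.96, 13.8 and 17.2 CPM in mutant replicates 1 to 3. The members of highest wild-type level were kcnn1b (a potassium channel), ADCY8 (an adenylyl cyclase) and gmip (a GTPase-activating protein). The 70 genes were selected on these CPM values: a member had a wild-type mean of at least 0.5 CPM, a mutant mean of at most that level divided by 8, and no overlap between the genotypes. The rule was met by 70 of the 32057 genes listed and by 0.431% of the 16246 genes with a wild-type mean of at least 0.5 CPM. The same libraries chose the genes and gave the values, so the difference between genotypes is described for these genes and no test of it is given. Having all mutant values below all wild-type values is not rare by itself: 24.8% of the 16246 genes did. The rule turned round, for genes nearly absent from wild type and read in the mutant, was met by 247 genes. Its base was the genes with a mutant mean of at least 0.5 CPM, which were not counted, so no share is given.

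RNA sequencing covered 3 libraries of wild-type fish, labelled WT (ybx1+/+), and 3 of homozygous mutants, labelled MT (ybx1-/-). All came from fish of the AB strain and from follicles at the stage labelled pre-vitellogenin; no treatment is named. The mutant allele, the age of the fish, and whether a library holds follicles of 1 fish or several are not given in the sources used here. P-values therefore measure the spread between these libraries. Follicles hold an oocyte with its granulosa and theca cells, and in such bulk RNA fewer cells of a type and less RNA per cell cannot be told apart. Total counts ran from 16600019 to 37764782 per library. Ybx1 RNA itself was present in both genotypes, at 276, 264 and 298 CPM in wild type, against 252, 241 and 229.7 CPM in the mutant. The groups did not overlap, and the log2 fold change (mutant against wild type) was -0.21 (standard error 0.06, edgeR adjusted p = 0.0244). That call was lost without wild-type replicate 1 or 3 or mutant replicate 2 or 3 (edgeR adjusted p = 0.053, 0.0995, 0.0706 and 0.084). The mutation is known here from its label alone, and the level of ybx1 RNA does not check it. For cdkn1a, which encodes the Cdk inhibitor p21 and is named in the series title, levels were 2.04 ± 0.318 CPM in wild type, against 1.58 ± 0.370 CPM in mutant libraries (SD, n = 3 per genotype), and edgeR did not call a difference (log2 fold change -0.38, standard error 0.26, adjusted p = 0.296).

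Ybx1 is a cold-shock-domain protein that binds RNA and DNA. In growing oocytes, proteins of its kind package messenger RNA into particles in which it is stored and kept from translation. Pre-vitellogenic follicles have an oocyte that grows and accumulates maternal RNA before it takes up yolk, and the series describes a block of mutant follicles at the next step. The comparison asks which transcripts differ between genotypes in follicles labelled with the earlier stage. Whether the mutant follicles collected were already blocked is not given in the sources used here.

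Most of the nearly lost genes were of low level. The median wild-type mean was 1.68 CPM, against 20.3 CPM over all 16246 genes. Only 12 of the 70 (17.1%) had a wild-type mean of at least 5 CPM, against 69.0% of the 16246 genes. A further 36 lay between 1 and 5 CPM and 22 under 1 CPM. The highest wild-type mean was 19.7 CPM and the lowest 0.506 CPM. Symbols were found for 64 of the 70 in the gene name table, and 6 had none. Clone names (si: or zgc:) made up 25.7% of members and 11.5% of the 16246 genes. The shares were not compared among genes of like level.

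**Figure D1:**
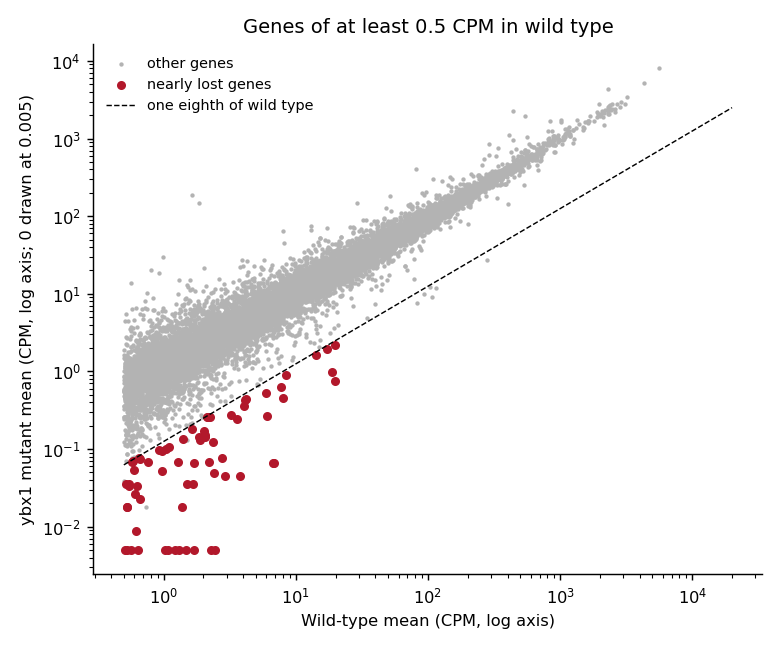
Mean CPM of the 3 mutant libraries (vertical, log axis) against that of the 3 wild-type libraries (horizontal, log axis) for the 16246 genes of at least 0.5 CPM in wild type, with the 70 nearly lost genes in red and the line of 1/8 of wild type dashed. Red points lie between 0.506 and 19.7 CPM in wild type, at the low end of the range, and the 12 genes with no mutant count lie on the lowest row.

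The members with the highest levels included several genes of membrane excitability and second messengers. This grouping by role, and those below, were made after the members were known. The gene kcnn1b, of a small-conductance potassium channel opened by calcium, had 20.8, 19.2 and 19.0 CPM in wild type, against 0.915, 0.747 and 0.609 CPM in the mutant, a 26.0-fold lower mean. ADCY8, of an adenylyl cyclase that calcium and calmodulin stimulate, had 18.4, 18.4 and 22.2 CPM in wild type, against 2.203, 2.14 and 2.17 CPM in the mutant. Its mutant libraries were almost equal, and its mutant mean was 9.05-fold lower. KCNH8, of a voltage-gated potassium channel, had 7.50, 7.59 and 10.2 CPM in wild type, against 0.779, 0.996 and 0.900 CPM in the mutant.

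CHRNB3, of a nicotinic acetylcholine receptor subunit, varied more in wild type, with 8.63, 10.2 and 5.19 CPM, and had 0.576, 0.448 and 0.344 CPM in the mutant. The gene ank2a, of an ankyrin that ties membrane proteins to the spectrin skeleton, had 4.78, 7.59 and 5.60 CPM in wild type, against 0.373, 0.498 and 0.688 CPM in the mutant. Further genes of synapses, cell signalling or ion channels were members at lower level. The synapsin gene syn1, of a protein of synaptic vesicles, had 2.45, 2.17 and 2.47 CPM in wild type, against 0.136, 0.0996 and 0.132 CPM in the mutant. GNB3 (a G protein beta subunit), NYAP2 (an adaptor of neuronal phosphoinositide signalling), KCNJ2 (an inward-rectifier potassium channel) and CACNG3 (an auxiliary subunit linked to glutamate receptors) had wild-type means of 1.69, 1.301, 0.663 and 0.564 CPM. NYAP2 and CACNG3 had no count in any mutant library.

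**Figure D2:**
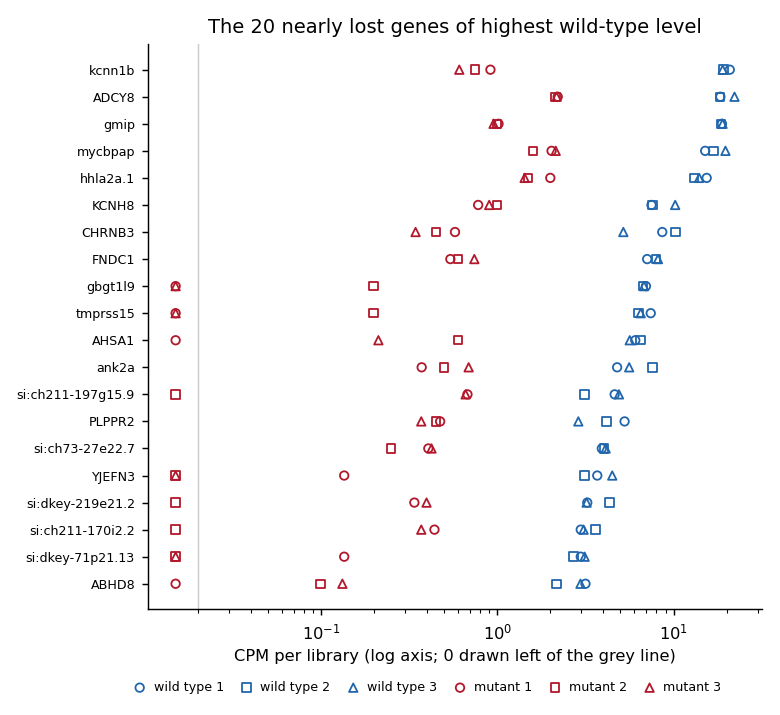
CPM in each library (log axis, counts of 0 drawn left of the grey line) for the 20 members of highest wild-type level, with wild-type libraries in blue, mutant libraries in red and a symbol shape for each replicate number. The wild-type libraries of most genes lie close together, and all lie to the right of the mutant ones; gbgt1l9 and tmprss15 have 4 counts in mutant replicate 2 and none in the other mutant libraries.

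Other members of high level had diverse roles. The gene gmip, of a GTPase-activating protein, had 18.8, 18.6 and 18.9 CPM in wild type, against 1.02, 0.996 and 0.953 CPM in the mutant, a 19.0-fold lower mean with little spread in either genotype. The gene mycbpap, named in mammals as a partner of the Myc-binding protein, had 15.1, 16.8 and 19.7 CPM in wild type, against 2.03, 1.59 and 2.14 CPM in the mutant. The gene hhla2a.1, whose human namesake is a ligand that acts on T cells, had 15.4, 13.1 and 14.0 CPM in wild type, against 1.999, 1.49 and 1.43 CPM in the mutant. These genes kept a residual level in all 3 mutant libraries.

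For 2 genes of middle level the residual was close to nothing. The gene gbgt1l9, a relative of the glycosyltransferase gene that makes the Forssman glycolipid in mammals, had 6.97, 6.69 and 6.80 CPM in wild type, 461 counts in all. In the mutant it had 0, 4 and 0 counts. Its mean was 103-fold lower, a loose ratio that rests on those 4 counts of 1 library. The gene tmprss15, of the protease enteropeptidase that activates trypsinogen in the gut, had 7.42, 6.33 and 6.51 CPM in wild type, 460 counts in all, and 0, 4 and 0 counts in the mutant. Mutant replicates 1 and 3 had no count for either gene. YJEFN3, of a protein with a YjeF domain, had 98, 52 and 109 counts in wild type and 4, 0 and 0 in the mutant. The clone-named gene si:dkey-71p21.13 had 79, 45 and 76 counts in wild type and 4, 0 and 0 in the mutant.

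AHSA1, of an activator of the chaperone Hsp90, had 6.06, 6.51 and 5.64 CPM in wild type, against 0, 0.597 and 0.212 CPM in the mutant. FNDC1, of a protein with fibronectin domains, had 7.08, 7.95 and 8.15 CPM in wild type, against 0.542, 0.597 and 0.741 CPM in the mutant. The remaining members among the 20 of highest level, which are 5 clone-named genes, PLPPR2 (a phospholipid phosphatase relative) and ABHD8 (a hydrolase), counting si:dkey-71p21.13 again, had wild-type means from 2.77 to 4.22 CPM and mutant means from 0.0452 to 0.447 CPM.

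Of the 70 genes, 12 had no count in any mutant library. The highest of them was arl3l2, of a small GTPase like Arl3, with 84, 25 and 64 counts in wild type. Set against a floor of 3 counts in the smallest mutant library (0.149 CPM), it was at least 16.3-fold lower in the mutant. ENSDARG00000090551, which has no symbol in the name table, had 59, 35 and 60 counts in wild type and was at least 15.2-fold lower. The cerebellin-like gene cbln17, RIBC1 (a protein of ciliary microtubules in mammals) and NYAP2 were at least 11.3-, 9.91- and 8.71-fold lower. For the other 7 of the 12 (ENSDARG00000055431, the secreted carbonic anhydrase gene CA6, the solute carrier gene SLC43A3, the transmembrane genes TMEM114 and CACNG3, and the clone-named si:dkey-26i13.8 and si:dkey-125e8.4) the bounds ran from 3.39- to 8.10-fold. At these levels the floor, and not the data, sets the size that can be stated.

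The other 58 genes had some mutant counts. A count was found in 1 mutant library for 26 genes, in 2 for 17 and in 3 for 15. The mean was 8 to 16 times lower for 33 genes, 16 to 32 times lower for 14 and more than that for 11, with a median of 14.4. Mutant counts of members came to 1400, against 15565 wild-type counts. The deepest library, mutant replicate 3, had a count for 44 members, mutant replicate 1 for 32 and mutant replicate 2, the shallowest of the mutants, for 29. For 9 genes the mutant total was 1 to 3 counts, so that the ratio is loose. The intervals given next cover counting error alone and not the spread between libraries. The same counts chose the genes, so the intervals are no test of the difference. For the chemokine receptor gene CXCR3 (158 counts in wild type and 3 in the mutant) the ratio of pooled counts per total was 68.2, with a 95% exact interval from 22.9 to 334. For SLC15A1, of an intestinal peptide transporter, it was 62.2 (16.8 to 521). Both were the firmest of the 9. In the others the lower end of the interval ran from 4.47 (si:dkey-46i9.3) to 8.55 (map1lc3cl), and for most of them it was below 8.

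In some genes the mutant counts came from a single library. KDELR3 had 16, 0 and 0 counts in the mutant, and si:dkey-188g12.1 had 0, 0 and 16. Of the 28 mutant counts of zgc:113276, mutant replicate 3 had 24. Among counts from 1 to 10 over all genes and libraries, 61.8% were even. Of the 105 mutant counts of members above 0, 65 were even. The counting rule is not given in the sources used here. Where both reads of a pair are counted, the floor and the intervals above cover less than they state.

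**Figure D3:**
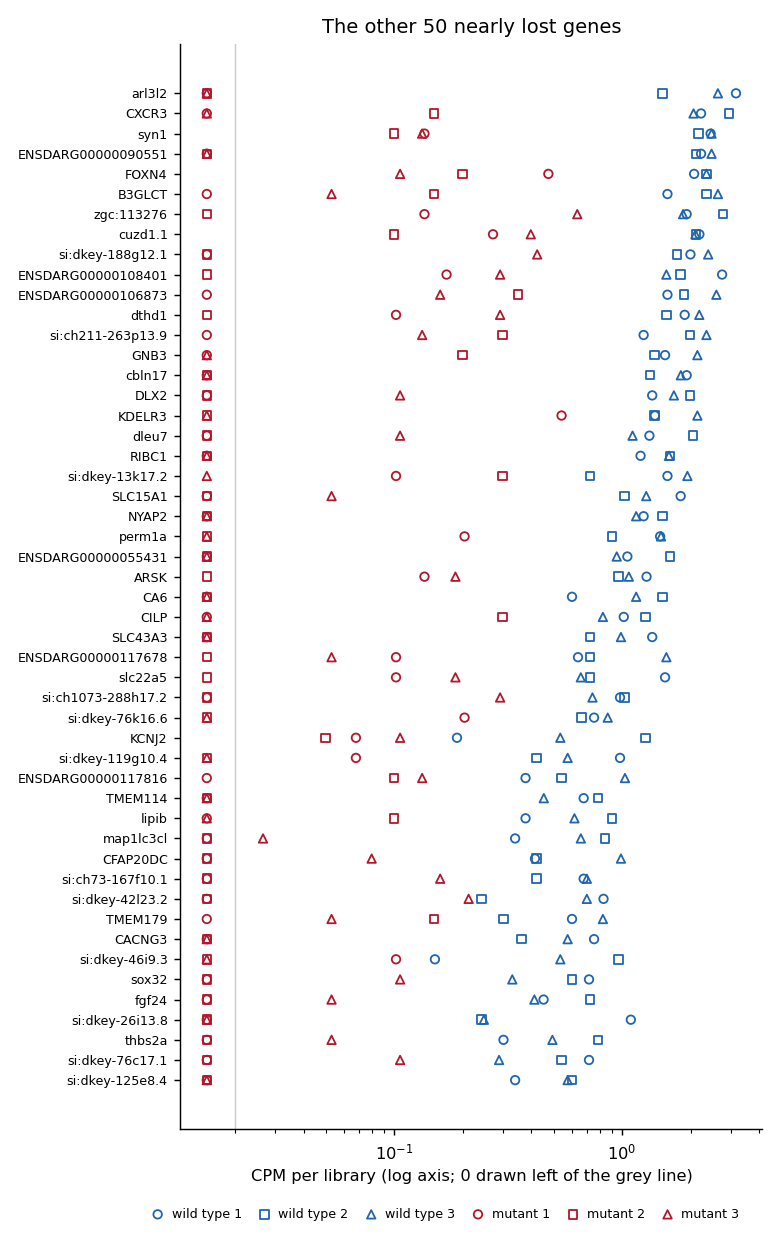
CPM in each library (log axis, counts of 0 drawn left of the grey line) for the other 50 members in order of wild-type level, with wild type in blue and mutant in red. Going down the plot the wild-type libraries spread out and more mutant libraries are at 0; in si:dkey-42l23.2, si:dkey-46i9.3 and KCNJ2 the lowest wild-type library comes close to the highest mutant one.

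Members of low level included developmental regulators. FOXN4, of a forkhead factor, had 2.07, 2.35 and 2.35 CPM in wild type, against 0.474, 0.199 and 0.106 CPM in the mutant. DLX2, of a homeodomain factor of the forebrain and pharyngeal arches, had 1.36, 1.99 and 1.69 CPM in wild type and 4 counts in 1 mutant library. The gene sox32, required for endoderm in zebrafish, had 19, 10 and 8 counts in wild type and 0, 0 and 4 in the mutant. The gene fgf24, of a growth factor needed for the pectoral fin bud in zebrafish, had 12, 12 and 10 counts in wild type and 0, 0 and 2 in the mutant. The levels of sox32 and fgf24 are near the limit of what the libraries can show.

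Genes of the extracellular matrix and of transport were members too. CILP (a cartilage matrix protein) and thbs2a (a thrombospondin) had wild-type means of 1.04 and 0.526 CPM. B3GLCT, of the enzyme that adds glucose to fucose on thrombospondin repeats, had 1.58, 2.35 and 2.64 CPM in wild type, against 0, 0.149 and 0.053 CPM in the mutant. The gene cuzd1.1, of a protein with CUB and zona pellucida domains, had 2.185, 2.108 and 2.1003 CPM in wild type, against 0.271, 0.0996 and 0.397 CPM in the mutant. The solute carriers SLC15A1, SLC43A3 and slc22a5, the last of them a carnitine transporter, had wild-type means of 1.37, 1.02 and 0.975 CPM. Over all 17385 genes tested, edgeR called 33.9%, with 18.6% higher and 15.3% lower in the mutant. Among the 310 other genes with a symbol starting in slc that were tested, 85 rose and 36 fell in the mutant. Of the 51 other potassium channel genes (symbols starting in kcn) tested, 14 rose and 4 fell. Of the 7 other nicotinic acetylcholine receptor genes (symbols starting in chrn) tested, 2 rose and 1 fell. The kcn and chrn families were added after the members were seen.

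The spread between wild-type libraries is given as a description, since these values chose the members. The median coefficient of variation between the 3 wild-type libraries was 0.427 for members under 1 CPM and 0.338 for all genes from 0.5 to 1 CPM. It was 0.205 and 0.184 from 1 to 5 CPM, and 0.0851 and 0.0914 from 5 to 20 CPM. The highest wild-type library was replicate 1 for 20 members, replicate 2 for 24 and replicate 3 for 26. In 4 members the highest wild-type library was more than 3 times the lowest. KCNJ2 had 5, 21 and 13 counts in wild type and 2, 1 and 4 in the mutant. The clone-named si:dkey-46i9.3 had 4, 16 and 13 counts in wild type. In si:dkey-26i13.8 wild-type replicate 1 had 29 of 39 counts, and in si:dkey-42l23.2 the wild-type libraries had 22, 4 and 17.

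The thresholds cut through a continuous range. Just inside the 8-fold limit were cuzd1.1 (8.33-fold), si:dkey-42l23.2 (8.35-fold) and ENSDARG00000117816 (8.40-fold). Just outside were NPC1L1 (7.84-fold, with a wild-type mean of 5.21 CPM), si:dkey-187j14.6 (7.77-fold) and styk1b (7.64-fold). At the level limit, si:dkey-125e8.4 was just inside with 0.506 CPM and si:dkey-110g7.9 just outside with 0.496 CPM.

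A further 10 genes had a mean lower by 8-fold or more but overlapped between genotypes, and 6 of these were vitellogenin genes, of the yolk precursor made in the liver. The largest, vtg1, had 316, 514 and 9.72 CPM in wild type, against 68.9, 12.4 and 1.24 CPM in the mutant. Liver markers varied in the same way: the summed level of 8 genes was 29.4, 37.3 and 4.12 CPM in wild type, against 21.1, 4.93 and 4.10 CPM in the mutant. Genes that overlapped between genotypes, as these did, were left out by the rule. The part of liver RNA in the members' levels was not tested.

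**Figure D4:**
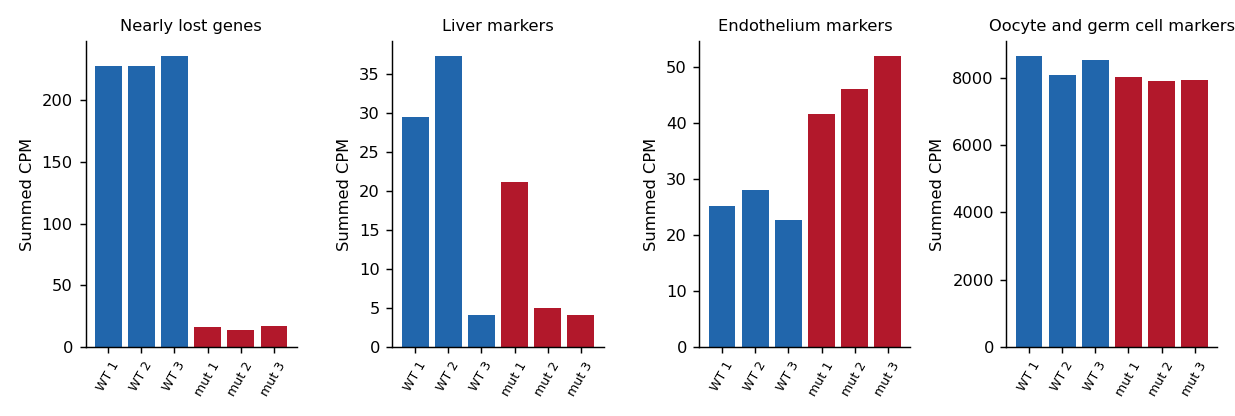
Summed CPM per library of the 70 members and of the fixed marker lists for liver, endothelium, and oocyte and germ cells, with wild-type libraries in blue and mutant libraries in red. The members' sum is 228 to 236 CPM in wild type and 13.8 to 17.2 CPM in the mutant, while liver markers are high in wild-type replicates 1 and 2 and mutant replicate 1, and the germ cell sum ranges from 7897 to 8647 CPM.

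No member was among the matched genes of the fixed marker lists. Members are 0.431% of the 16246 genes, so lists this short would hold few or none at that share. Symbols were matched for 14 of 16 oocyte and germ cell, 6 of 11 granulosa, 11 of 13 theca and stroma and 5 of 7 endothelial markers. For blood, leukocyte, liver, and sperm and testis the matches were 3 of 7, 7 of 10, 8 of 8 and 7 of 8. Markers without a match could not be looked at. Of 14 oocyte and germ cell markers, all but SYCP3 were abundant in every library. The wild-type mean of SYCP3 was 0.77 CPM and its mutant mean 1.19 CPM. Among these 14 markers 0 rose and 2 fell (DAZL and tdrd7a). The mean log2 level of that list differed by -0.04 between genotypes and the groups overlapped (exact two-sided permutation test, p = 0.3; 0.1 is the smallest p that 3 against 3 allow). Of 6 granulosa markers 3 rose, of 11 theca and stroma markers tested 8 rose, and of 5 endothelial markers 4 rose, with no decrease. Over all 17385 genes tested, 18.6% rose and 15.3% fell. The summed level was 66.1 to 74.5 CPM in wild type and 93.5 to 97.3 CPM in the mutant for granulosa, 208 to 223 and 288 to 292 CPM for theca and stroma, and 22.7 to 28.0 and 41.5 to 51.9 CPM for endothelium. The mean log2 levels of these 3 lists were higher in each mutant library than in any wild-type library, with differences of means of 0.34, 0.63 and 0.77 (exact two-sided permutation test, p = 0.1 each, the smallest possible). Leukocyte markers (3 rose and 1 fell of 6 tested, 23.3 to 25.5 and 27.9 to 31.1 CPM), blood markers (0 called of 2, 5.20 to 13.4 and 6.72 to 7.76 CPM) and liver markers (0 called of 7) overlapped in mean log2 level (exact permutation p = 0.2, 0.5 and 0.3). Sperm and testis markers had 1 gene higher and 1 lower of 3 tested, with 803 to 859 CPM in wild type and 957 to 1036 CPM in the mutant, of which CCNA1 made up 805 and 973 CPM on average. The mean log2 level of that list differed by -0.13 (exact permutation p = 0.1), and by 0.0213 with a pseudocount of 0.1 CPM. The part of cell composition in the members' levels was not tested.

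No member was among the matched genes of the fixed pathway lists described here either, which are also short beside a share of 0.431%. Symbols were matched for 18 of 21 cold-shock and ribonucleoprotein, 21 of 23 cyclin and Cdk, 12 of 25 TGF-beta and 13 of 13 egg coat genes. Among 18 tested genes of cold-shock and Ybx1-associated ribonucleoproteins, pabpc1b (a poly(A)-binding protein) rose and ybx1, eif4enif1 and EIF4E1B (factors that hold back translation in oocytes) fell, by log2 0.45, -0.21, -0.19 and -0.34. The call of eif4enif1 was lost in 3 of 10 alternative fits (highest edgeR adjusted p = 0.0801), without wild-type replicate 2 or 3 or mutant replicate 3. Among 21 cyclin and Cdk genes 5 rose (CCNA1, CCND1, CDK6, cdc25b and E2F4) and 2 fell (CDK4 and RB1). Of these, CDK6 changed most, from 3.19 ± 0.352 to 7.21 ± 1.304 CPM (SD, n = 3 per genotype). Among 13 TGF-beta signalling genes 5 rose (the INHBB gene ENSDARG00000103892, inha, SMAD2, tgfb1a and TGFB3) and smad9 fell. The second INHBB gene (ENSDARG00000040777) was not called (edgeR adjusted p = 0.0916). The calls of CDK4, RB1 and tgfb1a were lost in 4, 1 and 6 of 10 alternative fits. Among 13 egg coat genes 0 rose and 3 fell (zp3c, zp3d.2 and zpcx). The median log2 fold change of these 4 lists was -0.04, 0.04, 0.09 and -0.13, beside 0.01 over all genes tested. The counts called in the lists stand beside 18.6% higher and 15.3% lower over all 17385 genes tested.

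Relatives were sought by symbol: other genes with the same symbol, or with one that differs in the closing letter or number. Zebrafish often carry a pair of copies of a vertebrate gene. A relative was found for 23 members, 33 relatives in all, none of them a member. Of these, 13 passed the count filter; 3 rose, 0 fell and 10 were not called, 23.1% against 33.9% over all genes tested. The other 20 relatives did not pass the filter. By their means more of them were lower in the mutant than higher, and some had no count in any library. The second DLX2 gene (ENSDARG00000079964) had 0.681 and 0.154 CPM, cacng3a 0.447 and 0.114 CPM, and cuzd1.2 0.182 and 0.0265 CPM in wild type and mutant. Higher in the mutant were thbs2b (0.0377 and 0.101 CPM) and the GBGT1 gene ENSDARG00000019207 (0.0800 and 0.134 CPM).

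For 7 members a relative was read at a higher wild-type level than the member. The second gene with the symbol AHSA1 (ENSDARG00000100317) had 91.1 ± 2.32 CPM in wild type, against 85.4 ± 2.61 CPM in mutant libraries (SD, n = 3 per genotype). The second B3GLCT gene (ENSDARG00000073917) had 14.7 ± 0.845 and 16.04 ± 1.90 CPM, and ank2b had 13.3 ± 1.93 and 11.99 ± 0.890 CPM. None of the 3 was called (edgeR adjusted p = 0.227, 0.408 and 0.396). In these pairs the member was the less abundant copy. The second KDELR3 gene (ENSDARG00000040912), of a receptor that returns proteins to the endoplasmic reticulum, rose from 23.5 ± 2.17 to 34.7 ± 4.02 CPM (log2 fold change 0.56, standard error 0.10, edgeR adjusted p = 0.00175). The second SLC43A3 gene (ENSDARG00000057949) rose from 2.07 ± 0.402 to 3.75 ± 0.321 CPM (log2 fold change 0.88, standard error 0.20, edgeR adjusted p = 0.00668), so that the sum of both SLC43A3 genes was 3.10 CPM in wild type, against 3.75 CPM in the mutant.

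The order was the reverse for kcnn1b. Its copy kcnn1a had 2.01 ± 0.138 CPM in wild type, against 1.57 ± 0.400 CPM in the mutant and was not called (edgeR adjusted p = 0.315). Both copies together went from 21.7 to 2.33 CPM. For arl3l2, the relative arl3l1 had 1.497 ± 0.156 and 1.98 ± 0.247 CPM and was not called (edgeR adjusted p = 0.222). In the RefSeq order of the genes that could be placed by symbol, gbgt1l9 lies between relatives. There gbgt1l1, next to it, had 62.5 ± 3.46 CPM in wild type, against 66.5 ± 3.25 CPM in the mutant, and gbgt1l2, on the other side, had 2.74 ± 0.823 and 2.32 ± 0.374 CPM. Neither was called (edgeR adjusted p = 0.295 and 0.468). The relative gbgt1l4 was called higher (28.5 ± 1.56 and 32.6 ± 0.503 CPM, edgeR adjusted p = 0.0483), a call lost in 9 of 10 alternative fits. Reads that match more than 1 copy can be split between copies by the authors' counting, so values within such families are uncertain.

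**Figure D5:**
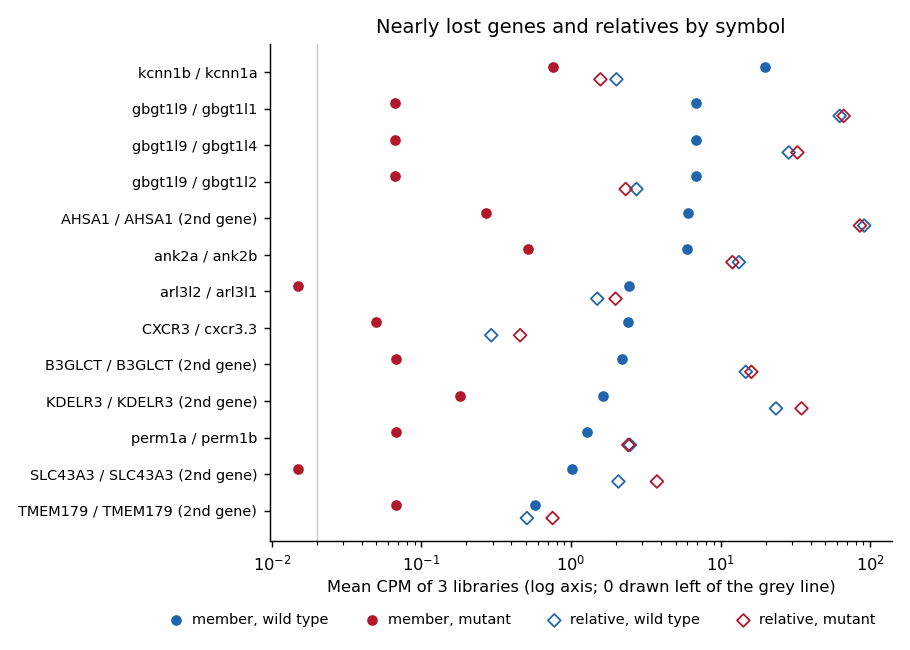
Mean CPM (log axis, 0 drawn left of the grey line) of 11 members and of their 13 tested relatives by symbol, with the member as filled circles, the relative as open diamonds, wild type in blue and mutant in red. The circles of a row lie far apart, which the choice of members fixes, while the diamonds of most rows nearly coincide.

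Positions were compared by gene order alone, since the files use GRCz11 and the order at hand is that of GRCz12tu. In that order 42 members could be placed by symbol among 16942 genes. Genes that could not be placed were left out, so they may lie between genes counted here as neighbours. None of the 168 genes within 2 places of a member was itself a member, and 2 members (CA6 and perm1a) lay within 5 places of each other. With 42 members among 16942 genes, 168 genes would hold few or none at that share. Of these 168 neighbours 125 were tested, and 28 rose and 24 fell in the mutant. That is 41.6%, with a median log2 fold change of -0.04, against 33.9% over all genes tested; with 1 gene on each side it was 35.7% and with 5 it was 37.4%.

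The neighbours named here were chosen after their values were seen, from those that changed more than 2-fold. They are not all of those, and changes of that size were not counted over all genes, so no share is given. Also called were SLC5A5 (log2 fold change 1.88), at the second place from kcnn1b, and GPR52 (-2.04), at the second place from si:ch211-197g15.9. Beside arl3l2, the gene myoz3a, of a muscle Z-disc protein, had no count in wild type, while its level was 0.484 ± 0.0891 CPM in mutant libraries (SD, n = 3). It was at least 2.68-fold higher, against a floor of 3 counts in the smallest wild-type library. Beside mycbpap, b3gntl1 rose from 8.40 ± 0.337 to 24.4 ± 1.23 CPM (edgeR adjusted p = 8.90e-07). Beside dthd1, a member with 1.88 CPM in wild type, pcolceb rose from 3.04 ± 0.197 to 10.7 ± 0.497 CPM (edgeR adjusted p = 3.22e-06). In the other direction, IGDCC4, at the second place from CILP, fell from 7.45 ± 0.889 to 1.301 ± 0.186 CPM (edgeR adjusted p = 5.54e-06). PDIA6, of a protein disulfide isomerase, at the second place from FNDC1, fell from 406 ± 6.50 to 143 ± 4.48 CPM (edgeR adjusted p = 3.66e-08). Of the 125 neighbours tested, the other 73 were not called.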

How the data were processed

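The authors deposited a table of whole-number counts per Ensembl gene and a table of normalized values, named for DESeq2 in the file name, which are the counts divided by a factor for each gene and library and are treated as a linear signal. The submitters' processing notes name bcl2fastq, FastQC 0.11.5, HISAT2, StringTie and DESeq2 and the build GRCz11; the counting rule and strand setting are not given in the sources used here. Libraries were made with a directional kit after TRIzol extraction, per the labels' protocols. CPM are counts divided by the column sum. Genes were tested with edgeR 4.0.16 (R 4.3.3), using quasi-likelihood tests, TMM factors, filterByExpr (minimum count 10, minimum total 15) and genotype alone. Benjamini-Hochberg adjustment ran over the 17385 genes that passed the filter. A call is an adjusted p under 0.05, and standard errors come from the F statistic. Of the 70 members, 57 passed the count filter and 13 did not. The 57 were part of the fit, the adjustment and the shares over all genes, but no member's test result is given. On simulated data with 200 genes changed 2-fold, the test recovered 192 with 9 false calls among 17060 genes. The changed genes were drawn only from genes above a minimum mean count, so recovery of genes with low counts was not measured. The simulated spread between libraries followed the trend that edgeR fits over level. Genes that vary more than that trend were therefore not covered. Replicates differed by more than sampling noise (chi-square per degree of freedom 5.31 to 24.1). Total counts were 16600019 to 37764782, and floors and intervals cover counting error only. The marker sums are mean log2 of CPM plus 0.5.

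The members and lists were chosen with earlier results of these data known. Genes were named by a fixed rule: the 20 members of highest wild-type level, those with no mutant count, those in families, those at the thresholds, ybx1, cdkn1a, called relatives and called genes of the pathway lists; others named were chosen after their values were seen. Of the families, potassium channels and nicotinic acetylcholine receptors were added after the members were seen. Symbols are those of the gene name table, in capitals where it writes them so. A protein comparison of relatives was planned and was replaced by symbols, a choice made after seeing the data. Alternatives were DESeq2 1.42.0, its size factors, no count filter, a replicate block, leaving out each library, other member thresholds, TMM-scaled CPM, the deposited normalized values and thinning to the smallest total. The results of 2 of the pathway lists are not reported here.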

Additional observations from a re-analysis of the deposited data

How the results depend on the processing

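The number of members followed the thresholds: 158 at most 1/4 of wild type, 37 at most 1/16, 120 with a wild-type mean of at least 0.2 CPM and 48 with at least 1 CPM. TMM-scaled CPM gave the same 70 genes, the deposited normalized values gave 74 (69 shared, mycbpap being lost) and thinning to the smallest total gave 77 (65 shared). Leaving out 1 library gave 63 to 97 members, of which 57 to 64 were shared. Calls over all genes numbered 5890, from 5580 to 6110 in the alternative fits on all libraries and from 4489 to 5326 without 1 library. With the replicate block 6110 genes were called. Same-numbered libraries correlated in their deviations at 0.1, 0.0302 and 0.143, and differently numbered ones at -0.125 to 0.0313. Wild-type replicate 2 correlated slightly more with mutant replicate 1 (0.0313) than with its own number. These values do not settle whether same-numbered libraries were paired. The ybx1 log2 fold change ranged from -0.26 to -0.16 without 1 library. Of 55 called genes that are not members (from pathway lists, relatives and neighbours), 41 kept their call in every alternative and 14 lost it in at least 1, with 0 reversed. The sperm and testis marker difference reversed to 0.0213 with a pseudocount of 0.1 CPM. The liver marker difference of -0.75 ranged from -1.37 to -0.39 and the blood marker difference of -0.11 from -0.26 to -0.002 without 1 library. Both the protein comparison of relatives and any use of sequence were not run. Depth and the chosen floor limit the bounds for genes at 0.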
